A study of Mus musculus with 3 samples.

Results

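Cycling keratinocytes were the cells of a mouse skin preparation that carried basal keratins together with transcripts of dividing cells. A cell was a member if at least 200 genes were detected in it, mitochondrial transcripts made up at most 10% of its UMIs (unique molecular identifiers, which count captured RNA molecules), Krt5 and Krt14 together reached 0.5% of its UMIs, and at least 4 of 8 genes had a UMI: Top2a, Ube2c, Cenpa, Cenpf, Cdk1, Cdc20, Birc5 and Mki67. The members were thus selected on their own keratin and cell cycle values. The rule gave 133 of 6022 kept cells. There were 40 in the non-pregnant library (NP), 65 in the library of gestation day 16 (dpc16) and 28 in the library of day 42 after birth (dpp42). They were drawn from 390, 845 and 254 keratinocytes, the cells that met the keratin minimum alone.

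All 3 groups were mice of strain C57BL/6 that carried Col1a2creERT2; R26H2B EGFP, with an age label of 8 to 12 weeks, and all received tamoxifen. In the dpc16 and dpp42 groups it was given while the mice were pregnant. NP mice had it on 3 days and were sampled 48 days afterwards. The Col1a2 driver is a fibroblast driver, so the reporter was not made to mark keratinocytes. Its EGFP transcript stood at 0 (NP), 3.44 (dpc16) and 0 (dpp42) CPM (UMIs per 1000000 UMIs, summed over the members of a library). Each group was 1 library of abdominal skin dermis, and the labels give no number of animals. Keratinocytes were therefore those left in, or released into, a dermal suspension after trypsin had been used to part the epidermis, and their numbers depend on that step as well as on the skin. With 1 library a group there is no replicate check and no test. Intervals are exact 95% intervals that cover counting error only, and each difference is one between libraries.

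The epidermis and the hair follicle outer sheath are renewed from a basal layer that expresses Krt5 and Krt14. Cells that leave it stop dividing and switch to Krt1 and Krt10, then to granular layer genes, while in the follicle the bulge holds slow-cycling stem cells and the infundibulum is its funnel at the surface. A dividing cell makes replication enzymes and histones in S phase, and transcripts of the spindle, kinetochore and anaphase machinery in G2 and mitosis.

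The 8 genes that chose the members act mostly in G2 and mitosis. Top2a untangles DNA, Cdk1 is the kinase that drives entry into mitosis, Ube2c and Cdc20 serve the anaphase-promoting complex, Cenpa and Cenpf belong to the centromere and kinetochore, Birc5 is a subunit of the chromosomal passenger complex, and Mki67 coats mitotic chromosomes. Genes of this class are commonly controlled through a cell cycle homology region (CHR) and CCAAT boxes near the start site, so the 120 bases before the RefSeq start (GRCm38.p6, written 5′ to 3′ on the gene's strand) are shown for 4 of them that differ in these letters. Capitals mark TTTGAA or TTCGAA (CHR) and CCAAT, on either strand.
Top2a, chr11:99024190-99024309, minus strand: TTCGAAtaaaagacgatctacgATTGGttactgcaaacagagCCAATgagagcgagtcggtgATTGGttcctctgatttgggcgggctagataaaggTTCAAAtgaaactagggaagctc
Cdk1, chr10:69352913-69353032, minus strand: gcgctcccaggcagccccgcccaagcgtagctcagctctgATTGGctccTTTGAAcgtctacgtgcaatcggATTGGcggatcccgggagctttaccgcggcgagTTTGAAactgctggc
Cdc20, chr4:118437344-118437463, minus strand: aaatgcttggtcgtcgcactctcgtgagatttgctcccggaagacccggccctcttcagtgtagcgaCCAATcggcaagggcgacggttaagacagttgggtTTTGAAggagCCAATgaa
Birc5, chr11:117849117-117849236, plus strand: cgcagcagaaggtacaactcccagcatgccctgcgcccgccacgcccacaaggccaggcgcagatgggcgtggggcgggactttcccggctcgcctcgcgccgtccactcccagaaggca
In the 300 bases from 250 before to 50 after the start, 7 of the 8 genes held both motifs, and Birc5 held neither. Of 45 promoters matched to a list of other G2 and mitosis genes, 75.6% held a CHR, 80% a CCAAT and 66.7% both. Among all 32851 promoters of the same length the shares were 19.2%, 37.4% and 7.52%. Promoters of DNA replication genes held a CHR in 5 of 33. The motifs were chosen after the expression values were known, and a match is a description of letters, not of a working site.

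Libraries differed in depth. Members held a median of 4223 UMIs in NP, 7347 in dpc16 and 3889.5 in dpp42, against 2480, 3976.5 and 2761 in keratinocytes with none of the 8 genes, called non-cycling here (315, 672 and 199 cells). UMIs summed over the members came to 185389, 580804 and 131582. A deeper cell shows more of the 8 genes at the same RNA content, so values are also given after each cell was thinned to 1900 UMIs. Kept barcodes found in a pair of libraries numbered 6 for dpc16 and NP, 1 for dpp42 and NP and 4 for dpp42 and dpc16, and no barcode was shared by members of different libraries. A doublet caller marked 1, 2 and 1 cells, under 0.5% of each library and none of them a member, so it had not worked and no doublets were removed.

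Members made up 10.3% of keratinocytes in NP (interval 7.43 to 13.7), 7.69% in dpc16 (5.99 to 9.70) and 11.0% in dpp42 (7.45 to 15.5). The ratio was 0.750 for dpc16 over NP (0.498 to 1.14), 1.07 for dpp42 over NP (0.639 to 1.79) and 1.43 for dpp42 over dpc16 (0.886 to 2.26), so no pair of libraries was set apart beyond counting error. When the rule was applied to thinned cells the shares became 8.46%, 4.31% and 8.91%. The dpc16 share then lay below NP (ratio 0.509, interval 0.311 to 0.836), and that of dpp42 over dpc16 was 2.07 (1.17 to 3.58). At the same depth, 1 or more of the 8 genes was found in 15.2%, 15.1% and 17.8% of keratinocytes, so dpc16 did not stand below NP on that looser measure. Fibroblast-gated cells gave 2.94%, 4.39% and 3.67%, and dividing fibroblasts and free RNA in the suspension were not told apart in these shares. At full depth 4 or more of the genes were seen in 0 of 103, 7 of 1163 and 0 of 112 fibroblast-gated cells. The NP value allows a share of up to 3.52% and the dpp42 value up to 3.24%.

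**Figure D1:**
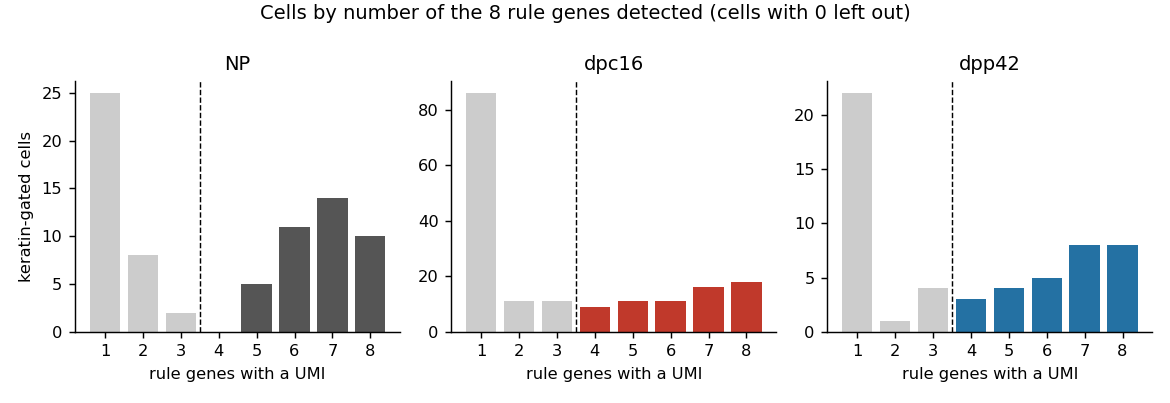
Number of keratin-gated cells (y axis, counts, scaled per panel) by how many of the 8 rule genes had a UMI (x axis), for the 3 libraries. Cells with 0 are left out, the dashed line is the minimum of 4 and coloured bars are members. No NP cell had exactly 4 genes, while 9 dpc16 cells did.

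The minimum of 4 genes fell in a gap in NP, where 2 cells had 3 genes and 0 had 4. In dpc16, 11 cells had 3 genes and 9 had 4, with no gap. On the keratin side the members nearest the minimum held 0.507%, 0.510% and 0.594% of UMIs as Krt5 and Krt14. The nearest cells outside that had at least 4 genes held 0.441%, 0.489% and 0.401%. In all, 37, 80 and 26 cells with at least 4 genes lay outside the keratin gate. Unthinned, Krt1 and Krt10 reached 0.5% of UMIs in 2 (NP), 3 (dpc16) and 4 (dpp42) of them. Summed over these outside cells, Krt10 stood at 1513 (NP), 1872 (dpc16) and 10490 (dpp42) CPM. In members it stood at 2195 (NP), 1462 (dpc16) and 836 (dpp42). These sums can rest on few cells. A single NP member held most of the NP members' Krt10 UMIs. Of the 26 outside cells of dpp42, 18 had a Krt10 UMI, and the highest Krt1 and Krt10 share in a cell was 4.02%. The deepest of them held 45212 of their 210296 UMIs. The keratin minimum thus left out some cells with at least 4 genes that carried Krt1 and Krt10. Beyond these values the outside cells were not studied.

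Levels of the 8 genes describe what the rule picked and are given without a test. Top2a stood at 1510.3 (NP), 405 (dpc16) and 1322 (dpp42) CPM. Mki67 stood at 405 (NP), 158 (dpc16) and 524 (dpp42), and Cenpf at 728 (NP), 281 (dpc16) and 555 (dpp42). In these 3 genes the dpc16 members were low and the other libraries lay close together. Cdc20 differed least, with 405 (NP), 322 (dpc16) and 289 (dpp42). The keratins of the rule were near level, with Krt5 at 4477 (NP), 4237 (dpc16) and 4499 (dpp42) and Krt14 at 7179.5 (NP), 8301 (dpc16) and 7250.2 (dpp42).

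**Figure D2:**
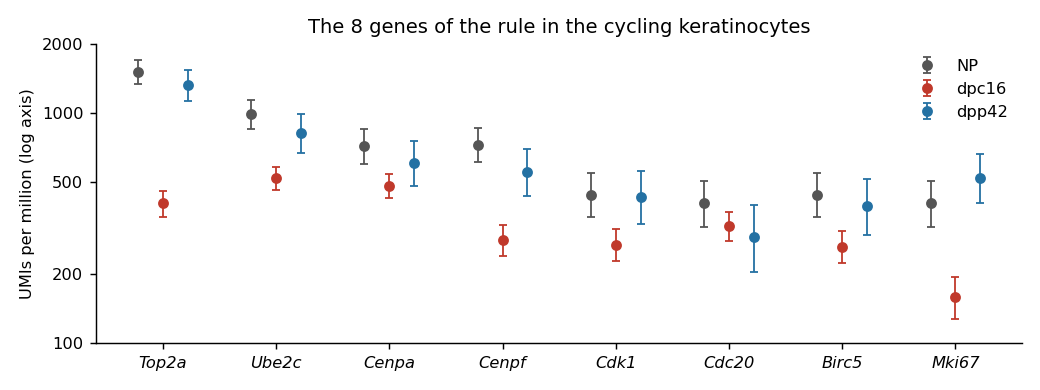
CPM (log axis) of each rule gene summed over the members of a library, with exact 95% Poisson intervals as bars. The dpc16 points are the lowest for 7 of the 8 genes, and for Cdc20 the lowest is dpp42.

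Against non-cycling keratinocytes of the same library, the members were higher for 623 of 5916 measured genes in NP (10.5%), 670 of 7812 in dpc16 (8.58%) and 505 of 4963 in dpp42 (10.2%). They were lower for 312 (5.27%), 708 (9.06%) and 313 (6.31%). A gene was measured if it reached 10 CPM in 1 of the groups and 20 UMIs over both, and higher or lower if the ratio was at least 1.5 with an interval that excluded 1. Of 4746 genes measured in all 3 libraries, 194 were higher and 56 lower in each. The rule sorted cells by genes that move together, so this contrast describes the selection.

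The 15 genes that ranked highest in members over the 3 libraries included motor, spindle and cytokinesis genes. Hmmr, a spindle assembly factor, stood at 372 (NP), 99.9 (dpc16) and 243 (dpp42) in the members and 0 (NP), 0.320 (dpc16) and 0 (dpp42) in non-cycling cells. Nusap1, which binds spindle microtubules, stood at 615 (NP), 155 (dpc16) and 464 (dpp42) against 2.12 (NP), 2.56 (dpc16) and 1.44 (dpp42). Ccna2, the cyclin of S phase and G2, stood at 248 (NP), 114 (dpc16) and 296 (dpp42) against 0 (NP), 0.640 (dpc16) and 0 (dpp42). The same ranking held Pbk, Ccnb2, Ect2, Kif23, Kif11, Tpx2, Spc25, Racgap1, Kif20b, Cdca3, Ckap2 and Cenpe. In the list of 49 other G2 and mitosis genes, 32 of 33 measured were higher in NP, 42 of 43 in dpc16 and 29 of 30 in dpp42.

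Replication genes were raised less. Of 35, the members were higher for 8 of 16 measured in NP, 22 of 28 in dpc16 and 9 of 12 in dpp42, with none lower. Rrm1, a subunit of ribonucleotide reductase, stood at 205 (NP), 89.5 (dpc16) and 198 (dpp42) against 22.2 (NP), 10.2 (dpc16) and 8.65 (dpp42). Chromatin genes were also high: Hmgb2 stood at 3145 (NP), 1758 (dpc16) and 2865 (dpp42) against 222 (NP), 197 (dpc16) and 183 (dpp42). Stmn1, which regulates microtubule turnover, stood at 2697 (NP), 1178 (dpc16) and 2469.9 (dpp42) against 142 (NP), 109 (dpc16) and 112 (dpp42).

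Among inhibitors of the cycle, Cdkn2c and Cdkn2d, which encode inhibitors of the cyclin D kinases, were higher in the members of every library. Cdkn2d stood at 248 (NP), 176 (dpc16) and 289 (dpp42) against 28.6 (NP), 19.5 (dpc16) and 20.2 (dpp42). The D-type cyclin Ccnd2 was lower in each, at 86.3 (NP), 189 (dpc16) and 83.6 (dpp42) against 311 (NP), 336 (dpc16) and 262 (dpp42).

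Cst6 was among the 10 genes that ranked lowest in members over the 3 libraries. It encodes a cysteine protease inhibitor of the infundibulum and stood at 59.3 (NP), 131 (dpc16) and 60.8 (dpp42) in the members against 269 (NP), 3311 (dpc16) and 1088 (dpp42). Defb6, a beta-defensin, stood at 32.4 (NP), 165 (dpc16) and 83.6 (dpp42) against 838 (NP), 2288 (dpc16) and 957 (dpp42). Krt6a, a keratin of the companion layer and of activated epidermis, stood at 16.2 (NP), 25.8 (dpc16) and 15.2 (dpp42) against 61.4 (NP), 397 (dpc16) and 745 (dpp42). Lhx2, a transcription factor of follicle stem cells, stood at 27.0 (NP), 8.61 (dpc16) and 0 (dpp42) against 88.9 (NP), 105 (dpc16) and 166 (dpp42), with a UMI in 2 (NP), 2 (dpc16) and 0 (dpp42) members. Calml3, S100a4, Ctgf, Krt79, Shisa2 and Fst completed the 10.

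Between libraries the members differed most where dpc16 was involved. For dpc16 over NP, 258 of 4294 measured genes were higher (6.01%) and 606 lower (14.1%). For dpp42 over dpc16, 543 of 4044 were higher (13.4%) and 305 lower (7.54%). The comparison of dpp42 with NP gave 86 higher (3.77%) and 106 lower (4.64%) of 2284, with fewer UMIs to see a difference. The median log2 ratio over all measured genes was -0.21, 0.20 and -0.03 in that order, so dpc16 was shifted as a whole. Scaling by the median ratio turned the first split to 504 higher and 322 lower, and the second to 257 and 547. Which side held more genes thus rests on the scaling. The 3 comparisons share libraries and are not independent.

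Some of these differences were also seen in non-cycling keratinocytes. Of the 258 genes higher in dpc16 than NP, 144 were also higher there, and of the 606 lower genes 258 were also lower. For dpp42 over NP the shared numbers were 10 of 86 and 21 of 106, and for dpp42 over dpc16 they were 250 of 543 and 172 of 305. Over all genes measured in non-cycling cells, 9.78% were higher and 18.6% lower for dpc16 over NP, 6.09% were higher and 3.68% lower for dpp42 over NP and 19.3% were higher and 8.16% lower for dpp42 over dpc16. The 2 cell groups of a library share its preparation, so the overlap is not independent support.

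Genes of G2 and mitosis were lower in dpc16 members. The list summed to 10346 (NP), 5458 (dpc16) and 9409 (dpp42) CPM, against 373 (NP), 322 (dpc16) and 416 (dpp42) in non-cycling cells. For dpc16 over NP, 25 of 46 measured list genes were lower and 0 higher, beside 14.1% and 6.01% of all genes. The list median was -0.93 on the log2 scale, and that of all genes -0.21. For dpp42 over dpc16, 25 of 46 were higher and 0 lower, beside 13.4% and 7.54% of all genes (list median 0.94, all genes 0.20). For dpp42 over NP, 1 of 40 was lower, Pttg1, and 0 higher, beside 4.64% and 3.77% of all genes. Split by number of rule genes, dpc16 members with 4 to 6 held 2974 CPM of the list, and those with 7 or 8 held 7610. NP members held 9443 and 10677, and dpp42 members 9439 and 9393. Members with 4 to 6 rule genes had a median of 2880 (NP), 5976 (dpc16) and 3130 (dpp42) UMIs. A deeper cell reaches a given number of rule genes at a lower level of them, so this split describes the selection. The log2 ratio of the list for dpc16 over NP was -0.92. It became -0.49 with members of 7 or 8 rule genes and -0.42 when cells were thinned before the rule, which removes the easier entry of deep cells. Both intervals stayed below 0.

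Replication genes summed to 1629 (NP), 1443 (dpc16) and 2288 (dpp42) CPM. In members with 7 or 8 rule genes the levels were 1629.6 (NP), 1681 (dpc16) and 1807 (dpp42), and the interval of each pairwise log2 ratio held 0. Members with 4 to 6 rule genes held 3205 CPM in dpp42. The log2 ratio for dpp42 over dpc16 was 0.66 over all members and 0.10 among those with 7 or 8. For dpp42 over dpc16, 6 of 23 measured were higher (Pcna, Rrm1, Uhrf1, Hells, Dut, Nasp) and 1 was lower, Mcm7, a subunit of the replicative helicase. Over all genes 13.4% were higher and 7.54% lower, and the list's median log2 ratio was 0.52 against 0.20. Pcna, the sliding clamp, stood at 108 (NP), 63.7 (dpc16) and 175 (dpp42), and was 2.74-fold higher (95% interval 1.56 to 4.74) in dpp42 than dpc16. For dpc16 over NP 0 of 22 were higher and 1, Rrm1, was lower, where 14.1% of all genes were lower. In thinned members, at least 2 UMIs of both lists were found in 22 of 40 NP cells (55%, interval 38.5 to 70.7), 35 of 65 dpc16 cells (53.8%, 41.0 to 66.3) and 22 of 28 dpp42 cells (78.6%, 59.0 to 91.7). The intervals overlap. No member had replication genes alone, and 1 of 65 dpc16 members had neither list. The rule chose cells by genes mostly of G2 and mitosis, so this describes the selection.

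**Figure D3:**
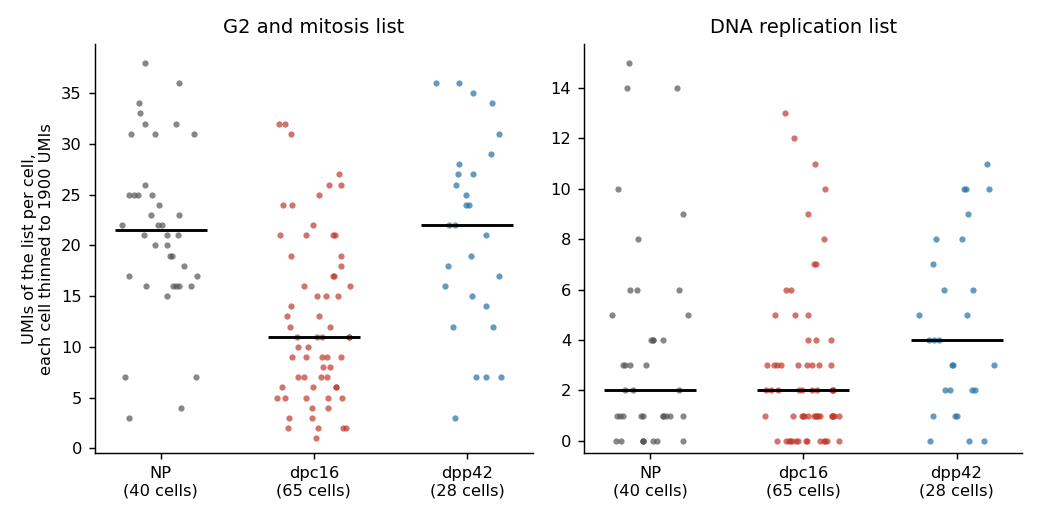
UMIs of the G2 and mitosis list (left) and the DNA replication list (right) in each member after thinning to 1900 UMIs, 1 point a cell with horizontal jitter, and the median as a line. The G2 and mitosis medians are 21.5, 11 and 22, and the replication medians 2, 2 and 4.

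Single histone genes differed between libraries in both directions. Hist1h1b, a linker histone of S phase (chr13:21779883-21780625, minus strand), stood at 383 (NP), 12.1 (dpc16) and 334 (dpp42) CPM and was 31.8-fold lower (95% interval 14.6 to 81.9) in dpc16 than NP. Hist1h2ae, an H2A gene, stood at 307 (NP), 6.89 (dpc16) and 388 (dpp42). Hist1h2ap, another H2A gene, went the other way with 64.7 (NP), 420.1 (dpc16) and 213 (dpp42). The H2A genes are near-identical copies among which the counting could split reads, so their single values are uncertain. The sum over 69 Hist genes, a group chosen after single values were seen, was 1289 (NP), 799 (dpc16) and 1543 (dpp42) in members. In non-cycling keratinocytes the sum was 156 (NP), 391 (dpc16) and 207 (dpp42). Fibroblast-gated cells gave 117 (NP), 245 (dpc16) and 160 (dpp42). The dpc16 sum was thus the lowest in members and the highest in both other cell groups.

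Some genes were low in dpc16 well beyond keratinocytes. Rps27rt, a retrotransposed ribosomal protein copy, stood at 1241 (NP), 139 (dpc16) and 1041 (dpp42) in the members and 1034 (NP), 138 (dpc16) and 997 (dpp42) in fibroblast-gated cells. The mitochondrial gene mt-Atp8, which overlaps its neighbour, stood at 502 (NP), 80.9 (dpc16) and 737 (dpp42) in members and 441 (NP), 71.5 (dpc16) and 502 (dpp42) in fibroblast-gated cells. Both genes thus separated dpc16 from the other libraries in members and in fibroblast-gated cells. The library and the condition cannot be told apart here.

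Akr1c18, which encodes the enzyme that inactivates progesterone (20-alpha-hydroxysteroid dehydrogenase; chr13:4132615-4150654, minus strand), ranked among the 10 highest genes of dpc16 over NP and was broadly carried. It stood at 32.4 (NP), 1587 (dpc16) and 60.8 (dpp42) CPM, with a UMI in 6 (NP), 39 (dpc16) and 2 (dpp42) members. Non-cycling keratinocytes held 113 (NP), 695 (dpc16) and 46.1 (dpp42). Members were 49.0-fold higher (95% interval 22.4 to 134) in dpc16 than NP, and 26.1-fold lower (95% interval 13.2 to 60.7) in dpp42 than dpc16. Without the 1 cell that held more of its UMIs than any other member, the dpc16 level was 1320.0. Akr1c19, Angptl4, Igfbp4, Slpi and F3 had 0 UMIs in NP members and 139, 107, 98.1, 63.7 and 58.5 CPM in dpc16. Set against a floor of 3 counts per library, Akr1c19 was at least 8.62-fold higher in dpc16 than NP. The cell with most held 52.9% of the F3 UMIs and 22.8% of those of Igfbp4.

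H2-Ab1, H2-Aa, Cd74, Cd207 and Rgs1 also ranked high in dpc16 and rested on few cells. Cd207, a receptor of Langerhans cells, had UMIs in 2 members, 1 of which held 95.9%. Of the 65 members, 3 carried at least 3 UMIs of the 10 macrophage and Langerhans markers, all of which were above 0, and 1 cell held 59.5% of the list's UMIs. Summed over its genes, the list stood at 21.6, 671 and 22.8 CPM. Without those 3 cells Cd207 had 0 UMIs in dpc16 and in NP members, and Rgs1 had 1 UMI in dpc16 and 0 in NP.

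Heat shock genes were higher in dpc16, and not only in keratinocytes. They summed to 6370 (NP), 13204 (dpc16) and 8953 (dpp42) CPM in members. Fibroblast-gated cells held 6035.5 (NP), 13109 (dpc16) and 5302 (dpp42). In the heat shock list, 9 of 11 measured genes were higher in dpc16 members than in NP members, beside 6.01% of all genes (list median 0.89 on the log2 scale, all genes -0.21). Hspa1a, an inducible HSP70, stood at 815 (NP), 2664 (dpc16) and 1771 (dpp42) in members and 748 (NP), 3517 (dpc16) and 1050.4 (dpp42) in non-cycling cells. The metallothioneins, which bind zinc and copper, were lower: Mt2 stood at 5804 (NP), 1653 (dpc16) and 3808 (dpp42) in members and 7642 (NP), 1355 (dpc16) and 4284 (dpp42) in fibroblast-gated cells. Phgdh, the first enzyme of serine synthesis, was 2.82-fold higher (95% interval 1.77 to 4.74) in dpc16 than NP, with 108 (NP), 305 (dpc16) and 106 (dpp42). Psat1, the next enzyme of that pathway, was 1.88-fold lower (95% interval 1.18 to 2.95), with 178 (NP), 94.7 (dpc16) and 98.8 (dpp42). In the list of serine synthesis and ATF4 targets 2 of 8 measured genes were higher and 1 was lower, and of 12 immediate early genes 3 were higher and 0 lower. Over all genes 6.01% were higher and 14.1% lower.

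The lowest genes in dpc16 against NP, beside the histones, were Atp1b1, Prr11, Spag7, Hr, Pcdh7, Lnp and Cdk5rap2. Hr, a corepressor needed for the hair cycle, stood at 91.7 (NP), 15.5 (dpc16) and 53.2 (dpp42) in members and 78.3 (NP), 39.7 (dpc16) and 112 (dpp42) in non-cycling cells. Trp63, the master transcription factor of the basal layer, stood at 448 (NP), 169 (dpc16) and 593 (dpp42) in members and 612 (NP), 257 (dpc16) and 555 (dpp42) in non-cycling cells. Dividing and resting cells were thus both low in dpc16 for each of these 2 genes.

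Timp3 was among the 10 genes with the highest ratio of dpp42 over NP. It encodes an inhibitor of metalloproteinases and stood at 59.3 (NP), 84.4 (dpc16) and 258 (dpp42), 4.35-fold higher (95% interval 2.15 to 9.53). Of 9 measured basal layer genes, 4 were higher and 0 lower, beside 3.77% and 4.64% of all genes. Itga6, Dst and Lamb3 were among them, and encode parts of the hemidesmosome and of the basement membrane it binds. On the log2 scale the list's median was 0.41, and that of all genes -0.03. Itga6 stood at 275 (NP), 265 (dpc16) and 426 (dpp42) in members and 440.3 (NP), 299.7 (dpc16) and 301 (dpp42) in non-cycling cells, and Lamb3 at 86.3 (NP), 96.4 (dpc16) and 205 (dpp42) and 138 (NP), 132 (dpc16) and 122 (dpp42). None of the 4 passed the same size rule in non-cycling cells, and the difference between cell groups was not tested. The cell with most held 11.1% of the dpp42 UMIs of Lamb3, and without it dpp42 stood at 199. Numa1, Fry, Axl, Gadd45g, Cdk2, Bmp4, Birc2 and Sostdc1 were the other leading genes, each at 114 to 152 CPM in dpp42 and at most 37.8 in NP.

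Fosl1, an AP-1 subunit, stood at 221 (NP), 422 (dpc16) and 15.2 (dpp42) in members and 83.6 (NP), 423 (dpc16) and 50.4 (dpp42) in non-cycling cells. It was 14.6-fold lower (95% interval 3.78 to 124) in dpp42 than NP and was found in 1 dpp42 cell. Lypd3, a surface protein of suprabasal cells, stood at 248 (NP), 365 (dpc16) and 22.8 (dpp42), 10.9-fold lower (95% interval 3.50 to 54.7). For dpp42 over NP, 3 of 9 activated list genes were measured and 3 were lower (Krt16, Fosl1, Serpinb2), beside 4.64% of all genes. For dpp42 over dpc16, 5 were measured and 5 were lower, beside 7.54%. The list medians were -1.71 and -2.02 on the log2 scale, and those of all genes -0.03 and 0.20. Members of dpp42 held the fewest UMIs, so a list gene reached the UMI minimum more easily when high in the other library. These counts and medians thus favour lower genes. Summed over all 9 genes, the list stood at 1268 (NP), 1909 (dpc16) and 562 (dpp42) CPM in members. In non-cycling cells it stood at 872 (NP), 2512 (dpc16) and 1674 (dpp42). There Krt6a and Krt16 were higher and Fosl1 lower for dpp42 over NP, among 5 measured. Creb5, Ch25h, Igfbp3, Ly6g6c and Sprr1a were lower too, at 7.60, 15.2, 45.6, 22.8 and 30.4 CPM in dpp42. One NP cell held 69.7% of the NP UMIs of Sprr1a, and without it the NP level fell from 178 to 55.9 CPM.

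**Figure D4:**
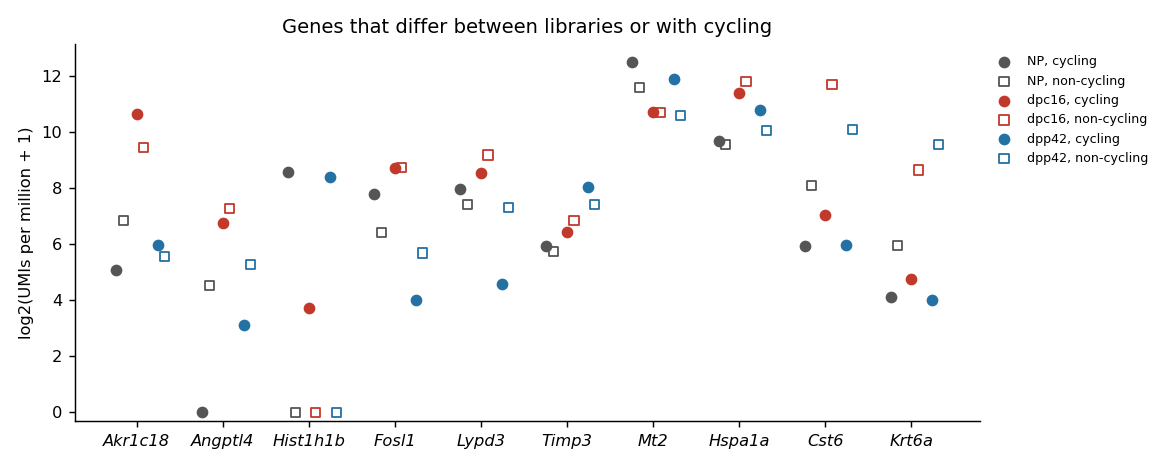
Levels of 10 genes as log2(CPM + 1), for the members (filled circles) and non-cycling keratinocytes (open squares) of each library. Akr1c18 is high in both cell groups of dpc16, and Cst6 and Krt6a are low in the members of all 3 libraries.

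For dpp42 over dpc16, the leading higher genes beyond the histones were Clec2d, Egln1, Msi2, Birc2, Wdr89, Hells and Casc5. Casc5, a kinetochore scaffold, stood at 140.2 (NP), 34.4 (dpc16) and 198 (dpp42), and Hells, a chromatin remodeller of S phase, at 10.8 (NP), 15.5 (dpc16) and 91.2 (dpp42). The leading lower genes beyond those already named were Pyy, Rhov, Acot1 and Ovol1. Pyy had 227 CPM in dpc16, of which 1 cell held 74.2%.

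Members carried basal markers. The spinous layer list also counted in most of them, and the granular layer list in few. A list counted in a cell if the cell, thinned to 1900 UMIs, held at least 2 of its UMIs. The basal layer list, without the keratins of the rule, counted in 100% (NP), 96.9% (dpc16) and 100% (dpp42) of members and 99.0% (NP), 97.8% (dpc16) and 96.5% (dpp42) of non-cycling keratinocytes. Fibroblast-gated cells gave 60.2% (NP), 49.0% (dpc16) and 58.9% (dpp42). Free RNA in the suspension and the fibroblasts' own transcripts of list genes were not told apart in these shares. Krt15, a basal keratin, stood at 4558 (NP), 7681 (dpc16) and 5312 (dpp42) CPM.

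The spinous layer list counted in fewer members than non-cycling cells in each library, and the rule chose members on Krt5 and Krt14. The share of cells with high Krt1 and Krt10 was lower in members of NP and dpp42, but not of dpc16. Krt1 and Krt10 reached 0.5% of UMIs in 1 of 40 cells in NP (2.50%, interval 0.0633 to 13.2), 5 of 65 cells in dpc16 (7.69%, interval 2.54 to 17.0), 0 of 28 cells in dpp42 (0%, interval 0 to 12.3). In non-cycling cells the shares were 11.4% (NP), 6.10% (dpc16) and 9.05% (dpp42), in fibroblast-gated cells 2.91% (NP), 0.516% (dpc16) and 0.893% (dpp42), and in unthinned members 2.50% (NP), 6.15% (dpc16) and 0% (dpp42). The 5 dpc16 cells held 7883 to 34625 UMIs, and when cells were thinned before the rule the NP and dpc16 shares were both 0%. The spinous layer list counted in 85.0% (NP), 63.1% (dpc16) and 82.1% (dpp42) of members and 94.9% (NP), 81.2% (dpc16) and 89.4% (dpp42) of non-cycling cells, with 56.3% (NP), 18.8% (dpc16) and 45.5% (dpp42) in fibroblast-gated cells. A single NP member held 84.3% of the Krt10, 90.4% of the Krt1, 90.6% of the Krtdap and 88.6% of the Krt77 UMIs. Krt1, Krtdap and Krt77 ranked among the 10 lowest genes of dpp42 over NP. Without members at 0.5% Krt1 and Krt10, their log2 ratios were 0.75, 0.79 and 0.36. The granular layer list counted in 0 of 40, 5 of 65 and 0 of 28 members. Its summed level was 75.5 (NP), 179 (dpc16) and 98.8 (dpp42) CPM in members. In non-cycling cells it was 87.8 (NP), 200 (dpc16) and 102 (dpp42).

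Follicle markers were carried by a minority in NP and dpp42. The upper follicle list counted in 14 of 40 cells in NP (35.0%, interval 20.6 to 51.7), 39 of 65 cells in dpc16 (60.0%, interval 47.1 to 72.0), 9 of 28 cells in dpp42 (32.1%, interval 15.9 to 52.4). Non-cycling cells gave 39.0% (NP), 72.9% (dpc16) and 55.3% (dpp42) and fibroblast-gated cells 15.5% (NP), 13.0% (dpc16) and 17.9% (dpp42). Plet1, a surface protein of the upper follicle, stood at 351 (NP), 718 (dpc16) and 129 (dpp42) in members and 182 (NP), 916 (dpc16) and 139.8 (dpp42) in non-cycling cells, and Aqp3, a water and glycerol channel, at 64.7 (NP), 248 (dpc16) and 76.0 (dpp42) and 265 (NP), 643 (dpc16) and 317 (dpp42). Both were high in dpc16 in both cell groups. Krt17 was lower in dpc16 members than in NP members, with 642 (NP), 365 (dpc16) and 159.6 (dpp42), while non-cycling cells held 581 (NP), 1389 (dpc16) and 1053 (dpp42).

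The infundibulum list counted in 7.50% (NP), 15.4% (dpc16) and 17.9% (dpp42) of members and 8.89% (NP), 32.1% (dpc16) and 23.1% (dpp42) of non-cycling cells. Fibroblast-gated cells gave 4.85% (NP), 11.4% (dpc16) and 3.57% (dpp42) and unthinned members 12.5% (NP), 64.6% (dpc16) and 32.1% (dpp42). Its summed level was 129 (NP), 386 (dpc16) and 258 (dpp42) CPM in members, 1307 (NP), 6417 (dpc16) and 2269 (dpp42) in non-cycling cells and 238 (NP), 748 (dpc16) and 181 (dpp42) in fibroblast-gated cells. In NP and dpc16 the members' summed level thus lay below that of fibroblast-gated cells. In dpc16 the list was uneven: 1 member held 13 of its 48 UMIs after thinning, and no other held more than 3.

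The bulge list counted in 20.0% (NP), 23.1% (dpc16) and 28.6% (dpp42) of members and 30.8% (NP), 48.4% (dpc16) and 56.8% (dpp42) of non-cycling cells. Fibroblast-gated cells gave 59.2% (NP), 50.9% (dpc16) and 61.6% (dpp42), but Cd34 and Postn are also fibroblast genes, so these shares are no measure of free RNA. Against non-cycling cells, members were lower for 6 of 8 measured bulge genes in NP, 6 of 9 in dpc16 and 6 of 9 in dpp42, beside 5.27%, 9.06% and 6.31% of all genes. Sox9, a transcription factor of the outer root sheath, stood at 80.9 (NP), 138 (dpc16) and 53.2 (dpp42) in members against 175 (NP), 525 (dpc16) and 569 (dpp42). Lists of the hair matrix, inner root sheath and hair shaft counted in 0 of 40, 0 of 65 and 0 of 28 members, which allows shares of up to 8.81%, 5.52% and 12.3%.

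**Figure D5:**
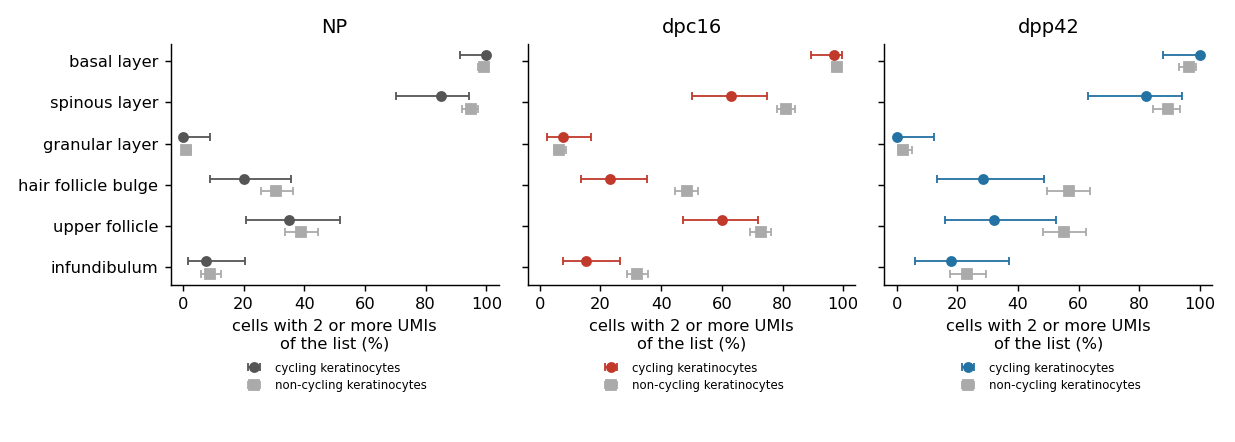
Share of cells (x axis, %) with at least 2 UMIs of each compartment list after thinning to 1900 UMIs, in members (coloured circles) and non-cycling keratinocytes (grey squares), with exact 95% binomial intervals. The basal list counts in nearly every cell of both kinds, and the bulge list in 20 to 28.6% of members.

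Of 14 hormone receptors, 7 were measured for dpc16 over NP, with 0 higher and 1 lower, Rarg, and the list summed to 399 (NP), 406 (dpc16) and 418 (dpp42) CPM. Prlr, the prolactin receptor, stood at 37.8 (NP), 72.3 (dpc16) and 38.0 (dpp42), and Pgr, the progesterone receptor, had 0 UMIs in all members. In the EGF family list, Hbegf was higher and Fgfr2 lower for dpc16 over NP among 7 measured. In the Notch and Wnt list, Notch1, Wnt3 and Ctnnb1 were lower and 0 higher among 10 measured. Over the 3 lists 1 of 24 was higher and 5 were lower, beside 6.01% and 14.1% of all genes. For dpp42 over dpc16, Igf1r was higher and Hbegf and Epgn were lower among 7 genes of the EGF family list, and Notch1, Wnt4 and Ctnnb1 were higher and Hes1 lower among 9 of the Notch and Wnt list. None of 7 hormone receptors passed the size rule, beside 13.4% higher and 7.54% lower over all genes.

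Fibroblast transcripts were at their highest level in dpc16 members. In unthinned cells, at least 3 UMIs of the 8 fibroblast markers were held by 0 of 40, 28 of 65 and 5 of 28 members. The deeper dpc16 members reach such a minimum more easily, with a median of 7347 UMIs against 4223 (NP) and 3889.5 (dpp42). The list stood at 75.5, 363 and 205 CPM. In non-cycling keratinocytes it stood at 214, 1410 and 419. Without members that held 3 or more unthinned UMIs of any of 6 other cell types, 40, 35 and 23 remained. The log2 ratio of the G2 and mitosis list for dpc16 over NP was then -0.53. That of the replication list changed from -0.18 to 0.14, both with intervals that held 0. The dpc16 share of cycling cells became 5.92%, and lower genes for dpc16 over NP numbered 343.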

How the data were processed

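Single-cell RNA of dermal cells from abdominal skin was measured in 3 libraries (10x Chromium, version 2 chemistry, per the labels' protocols). The deposited values are raw UMI counts per gene and cell, made with Cell Ranger 2.2.0 on mm10 (GRCm38), per the submitters' processing notes. Depth was 6031814 (NP), 21679047 (dpc16) and 5794940 (dpp42) counts over 1330, 4122 and 1196 barcodes. The filters of at least 200 genes and at most 10% mitochondrial UMIs kept 1289, 3652 and 1081, where the series states 1289, 3650 and 1081.

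Members and gene lists were chosen with earlier results of these data known. Counts were summed over the members of a library and given as CPM, UMIs per 1000000. Intervals were exact at 95% (Poisson, conditional binomial for ratios, Clopper-Pearson for shares). They cover counting error only, and UMIs of 1 cell are not independent. With 1 library a group no test was run. Log2 ratios had 0.5 UMIs added. Thinning drew 1900 UMIs per cell. Fibroblast-gated cells had fibroblast markers at 0.5% of UMIs or more and failed the keratin minimum. Genes were named by rank of ratio: 10 each way per comparison among genes of at least 50 CPM that passed the size rule, and 15 higher and 10 lower in members than non-cycling cells. Some genes that the rule picked are not reported here. Of 28693 genes, 28339 matched GENCODE M21 for coordinates. The calculation was tested on simulated counts: genes with few UMIs were often missed, so an unlisted gene is not shown to be equal. Python 3.11.15, scipy 1.17.1, pandas 2.3.3 and scanpy 1.11.5 were used.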

Additional observations from a re-analysis of the deposited data

Results flagged for a closer look

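Opposite differences between libraries were seen for 9 genes named or listed above: the members lay above non-cycling keratinocytes in 1 library and below them in another, each past the size rule. The values are log2 ratios, members over non-cycling, and the difference between libraries was not tested. Akr1c18 was -1.70 in NP and 1.19 in dpc16. Pyy was -1.87 in NP and 2.48 in dpc16 and -3.90 in dpp42, with 1 cell holding 74.2% of the dpc16 UMIs. Krt16, a keratin of activated epidermis, was 1.36 in NP and -1.64 in dpc16 and -2.62 in dpp42. Sprr1a, a cornified envelope precursor, was 2.23 in NP and -0.98 in dpc16, with 1 cell holding 69.7% of the NP UMIs. Creb5 was 1.03 in NP and -2.70 in dpp42, and Hes1, a Notch target, was 0.70 in NP and -0.69 in dpp42. The antigen presentation genes of few cells were H2-Ab1 at -4.25 in NP and 2.50 in dpc16, H2-Aa at -2.33 in NP and 2.41 in dpc16 and Cd74 at -2.66 in NP and 2.37 in dpc16. Pyy in dpp42 and H2-Ab1 in NP had 0 UMIs in the members, and Creb5 in dpp42, H2-Aa in NP and Cd74 in NP had 1, 1 and 2, so these values depend on the 0.5 UMIs added and are no bounds.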

How the results depend on the processing

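Values below moved out of the interval of the main value, or by over 1.5 times for a count, and the cause was not tested unless the setting itself changed the number of cells, UMIs or genes. With at least 3 UMIs of a list, the share was 0% for infundibulum list in members of NP and 3.08% for infundibulum list in members of dpc16. With at least 5 of 8 genes, the log2 ratio was 0.38 for DNA replication list in dpp42 over dpc16, -0.75 for G2 and mitosis list in dpc16 over NP and -0.031 for G2 and mitosis list in dpp42 over NP. With a minimum of 50 UMIs, higher genes numbered 38 for dpp42 over NP and 294 for dpp42 over dpc16, and lower genes numbered 342 for dpc16 over NP and 54 for dpp42 over NP. With at most 5% mitochondrial UMIs, the share was 5.26% for infundibulum list in members of dpp42. With thinning before the rule, higher genes numbered 263 for dpp42 over dpc16, and lower genes numbered 278 for dpc16 over NP and 203 for dpp42 over dpc16. With thinning before the rule, the log2 ratio was -0.42 for G2 and mitosis list in dpc16 over NP, 0.35 for G2 and mitosis list in dpp42 over dpc16, 0.60 for Krt1 in dpp42 over NP and 0.72 for Krtdap in dpp42 over NP. With thinning before the rule, the share was 0% for Krt1 and Krt10 at 0.5% or more of UMIs in members of NP, 0% for Krt1 and Krt10 at 0.5% or more of UMIs in members of dpc16 and 4.31% for cycling cells among keratinocytes of dpc16. With cells thinned to equal weight, higher genes numbered 126 for dpc16 over NP, 25 for dpp42 over NP and 152 for dpp42 over dpc16, and lower genes numbered 178 for dpc16 over NP, 48 for dpp42 over NP and 144 for dpp42 over dpc16. With 7 or 8 rule genes, higher genes numbered 242 for dpp42 over dpc16, and lower genes numbered 288 for dpc16 over NP and 185 for dpp42 over dpc16. With 7 or 8 rule genes, the log2 ratio was 0.045 for DNA replication list in dpc16 over NP, 0.15 for DNA replication list in dpp42 over NP, 0.10 for DNA replication list in dpp42 over dpc16, -0.49 for G2 and mitosis list in dpc16 over NP and 0.30 for G2 and mitosis list in dpp42 over dpc16. With no minimum of UMIs or level, higher genes numbered 173 for dpp42 over NP and 861 for dpp42 over dpc16, and lower genes numbered 926 for dpc16 over NP and 167 for dpp42 over NP. With a ratio of at least 2, higher genes numbered 51 for dpp42 over NP. Scaled by the median ratio, higher genes numbered 504 for dpc16 over NP and 257 for dpp42 over dpc16, and lower genes numbered 322 for dpc16 over NP and 547 for dpp42 over dpc16. In unthinned cells, the share was 64.6% for infundibulum list in members of dpc16. Without cells with 3 UMIs or more of another type, higher genes numbered 315 for dpp42 over dpc16, and lower genes numbered 343 for dpc16 over NP. Without cells with 3 UMIs or more of another type, the log2 ratio was 0.14 for DNA replication list in dpc16 over NP, -0.53 for G2 and mitosis list in dpc16 over NP, 0.15 for G2 and mitosis list in dpp42 over NP and 0.68 for G2 and mitosis list in dpp42 over dpc16. Without cells with 3 UMIs or more of another type, the share was 5.92% for cycling cells among keratinocytes of dpc16. Without members at 0.5% Krt1 and Krt10, the log2 ratio was -0.28 for G2 and mitosis list in dpp42 over NP, 0.59 for G2 and mitosis list in dpp42 over dpc16, 0.75 for Krt1 in dpp42 over NP, 0.36 for Krt77 in dpp42 over NP and 0.79 for Krtdap in dpp42 over NP. All ratios of shares of cycling cells kept their direction under the alternatives except dpp42 over NP, whose interval held 0 throughout. Among single genes, 795 values stayed within the main interval and 42 moved with their direction kept or uncalled, and 5 changed sign (given above). The G2 and mitosis list for dpp42 over NP also changed sign, from -0.14 to 0.15 without cells of another type. The settings with 7 or 8 genes, without Krt1 and Krt10 cells, and without macrophage and Langerhans cells were chosen after seeing the data. A keratin minimum of 2% left 1 member in NP, 10 in dpc16 and 1 in dpp42, so only shares were computed under it. With under 10 members no gene value was taken, a limit set after seeing the data. Of 8 named gene ratios with over 3 UMIs under that minimum, 3 had the other sign. For 7 genes, 19 ratios were not taken because both libraries held 3 UMIs or fewer. No paired analysis was possible because each group is 1 library. Depth is 1 limit beside the lack of replicates: dpp42 members hold 131582 UMIs, so 10 CPM is 1 or 2 counts there.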
